A study of Mus musculus with 14 samples.

Results

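The loss of G9a in the interfollicular epidermis (IFE) was examined on 7 of the 14 arrays of the series. The 7 arrays were chosen by their sample titles alone: 4 held RNA of IFE cells from G9a cKO mice and 3 held RNA of IFE cells from G9a WT mice. The remaining 7 arrays, 4 cKO and 3 WT, held RNA of cells from the bulge, the niche of the hair follicle that keeps its stem cells. Their values are set beside the IFE values as those of a neighbouring compartment. They also entered the fit behind the IFE p-values and the choice of each gene's probe set. All mice were 15 weeks old, their skin was in homeostasis, and they differed between groups only in the label G9a WT or G9a cKO, the abbreviation for a conditional knockout. The sources used here name no Cre driver and no targeted exons, and do not describe how the IFE cells were separated. Nor do they say whether the replicates were separate mice or whether IFE and bulge arrays with the same number shared a mouse, so the p-values measure the spread between these arrays, which may be technical.

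G9a, encoded by Ehmt2, methylates lysine 9 of histone H3, mostly as a dimer with the related enzyme GLP, encoded by Ehmt1. The mark is known for keeping genes of other tissues, germ line genes and the silent copies of some imprinted genes off. The IFE is the stratified epithelium between hair follicles: basal keratinocytes, anchored to the basement membrane, divide and send daughter cells upwards, which build the keratin network, the cornified envelope and the lipid barrier. Keratinocytes also secrete hyaluronan, matrix proteases and cytokines, among them the alarmin TSLP.

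Values are log2 signals, so a difference of 1 is 2-fold. The median over all probe sets lay between 5.76 and 5.79 on the 7 IFE arrays. Arrays have no read depth, so their number limits the precision. The labelled cell type was checked against its markers. On the IFE arrays of both genotypes the basal keratins Krt5 and Krt14 read 12.32 to 12.65 and the suprabasal keratins Krt1 and Krt10 read 11.50 to 12.55. On the bulge WT arrays the 2 pairs read 12.18 to 12.71 and 9.41 to 10.18, so the basal keratins did not separate the compartments. Epgn, Dsg1a and Il33 read 7.86 to 10.55 on the IFE arrays and 4.25 to 6.28 on the bulge WT arrays. Itga6 also read higher on the IFE arrays, whereas the remaining interfollicular markers, Itgb4, Trp63 and Col17a1, read higher on the bulge WT arrays. The bulge markers Cd34, Lgr5, Lhx2 and Grem1 read 4.28 to 6.67 on the IFE arrays and 9.66 to 11.43 on the bulge WT arrays. A further pair of bulge markers, Sox9 and Nfatc1, read 8.45 to 9.72 on the IFE arrays and 10.27 to 11.24 on the bulge WT arrays. The 7 IFE arrays did not split by genotype on the first principal component, which held 40.2% of the variance. It set WT 3, at 25.8, against cKO 2 and cKO 3, at -17.0 and -16.2, and those 2 cKO arrays correlated with each other at 0.998 over all genes, the highest of any pair of IFE arrays.

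Ehmt2 itself had a pair of probe sets that behaved differently. One read 9.59 to 9.78 on the IFE WT arrays and 5.95 to 6.09 on the IFE cKO arrays, a fall by 3.66 (SE 0.06; limma, adjusted p = 1.89e-11 over all probe sets). The other, brighter on average over all arrays and so the one that stood for the gene, read 7.84 to 8.05 in WT and 7.92 to 8.03 in cKO, a difference of 0.08 (SE 0.06; adjusted p = 0.722). The positions of the probes within the gene were not used here. Ehmt1 had a difference of -0.09 (SE 0.10; adjusted p = 0.846).

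Among 17097 genes, 85 (0.497%) passed the test between the IFE groups (limma, adjusted p under 0.05): 55 (0.322%) were higher and 30 (0.175%) were lower in cKO. The rises were the larger changes. Of the 55 risen genes, 20 rose at least 2-fold (0.117% of all genes). Of the 30 fallen genes, 2 fell that far (0.0117%), the matrix metalloprotease gene Mmp3 and the hyaluronan synthase gene Has3. For each of the 85 genes the 4 cKO values and the 3 WT values did not overlap, as was the case for 1876 of all genes (11%), 5.01% with cKO higher and 5.97% with cKO lower. At an unadjusted p under 0.05 the number of genes was also 1876. The median difference over all genes was -0.01, with 45.2% of genes above 0 and 54.8% below 0. Since each array holds the RNA of many cells, fewer cells of a type and less RNA per cell cannot be told apart.

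**Figure D1:**
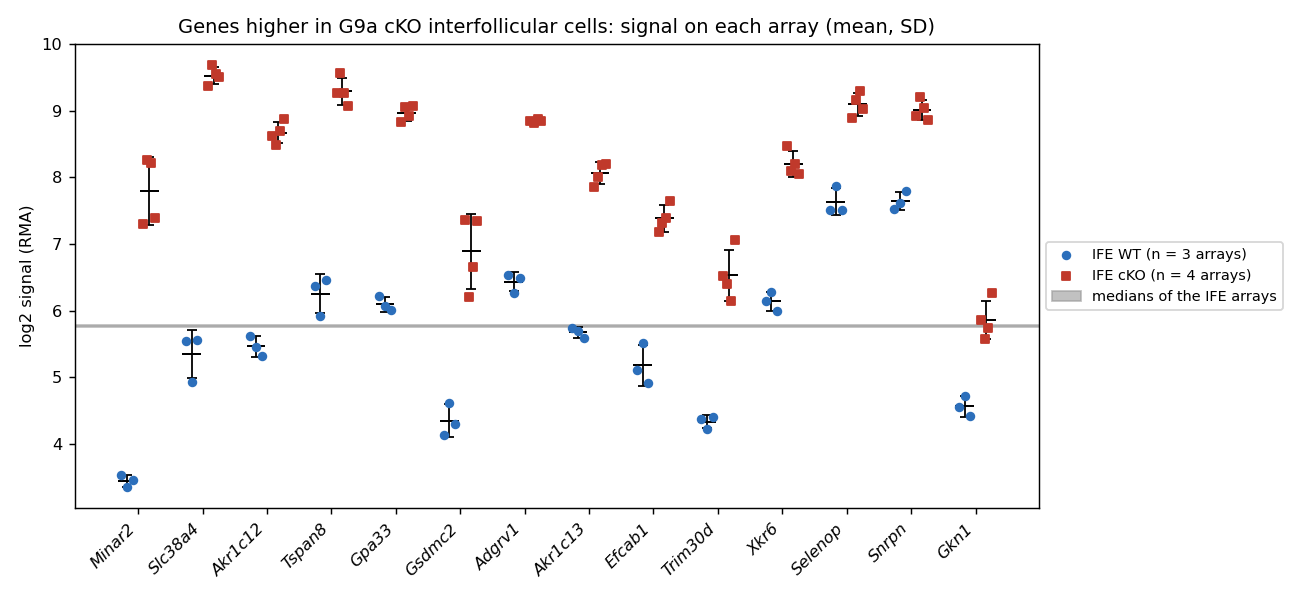
Log2 signal (RMA) of 14 genes that rose in IFE cells of cKO mice, with a point for each array (circles, WT, n = 3; squares, cKO, n = 4), the mean and the SD; the grey band marks the medians of the IFE arrays, 5.76 to 5.79. The squares lie above the circles for every gene shown, and Minar2, Slc38a4, Akr1c12, Gsdmc2, Akr1c13, Efcab1, Trim30d and Gkn1 lie below the band on each WT array.

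The gene with the highest difference was Minar2, which encodes a small membrane protein known from hair cells of the inner ear. It read 3.53, 3.35 and 3.45 on the WT arrays and 7.31, 8.26, 8.22 and 7.39 on the cKO arrays. It therefore went from among the dim signals of the array to well above its median, by 4.35 (SE 0.25; limma, adjusted p = 1.4e-06). Slc38a4, a sodium-coupled transporter of neutral amino acids and an imprinted gene, read 5.55, 4.93 and 5.56 in WT and 9.38, 9.69, 9.55 and 9.50 in cKO. The 4 cKO arrays lay close together and far above the WT arrays, and the rise of 4.18 (SE 0.20; adjusted p = 3e-07) is 18.1-fold.

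A pair of aldo-keto reductases, enzymes that reduce ketones and aldehydes, rose together. Akr1c12 read 5.62, 5.45 and 5.32 in WT and 8.62, 8.49, 8.70 and 8.88 in cKO, a rise of 3.21 (SE 0.11; limma, adjusted p = 2.82e-08). Akr1c13 read 5.75, 5.69 and 5.59 in WT and 7.86, 8.01, 8.19 and 8.21 in cKO, a rise of 2.39 (SE 0.11; adjusted p = 2.52e-07). All WT values of both genes lay below the array medians and all cKO values well above them. The 2 genes are close copies, and signal that one transcript gives on the other's probes was not tested.

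Genes known for other epithelia were among the risen. Tspan8, a tetraspanin of the cell surface, read 6.37, 5.92 and 6.47 in WT and 9.27, 9.57, 9.26 and 9.08 in cKO (rise 3.04, SE 0.22; limma, adjusted p = 1.87e-05). Gpa33, the A33 glycoprotein of the gut epithelium, read 6.22, 6.07 and 6.01 in WT and 8.83, 9.06, 8.92 and 9.07 in cKO (rise 2.87, SE 0.11; adjusted p = 5.96e-08). Gkn1, the gastrokine of the stomach lining, read 4.55, 4.72 and 4.41 in WT and 5.86, 5.58, 5.74 and 6.26 in cKO. Its rise of 1.30 (SE 0.16; adjusted p = 0.00192) left it near the array median. Gsdmc2, a member of the pore-forming gasdermin C family, was the most variable of this group. Its cKO arrays read 7.37, 6.21, 6.66 and 7.34, against 4.13, 4.62 and 4.30 in WT (rise 2.55, SE 0.30; adjusted p = 0.00169).

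The adhesion receptor gene Adgrv1, known from the hair bundles of the inner ear, read 6.53, 6.27 and 6.50 in WT and between 8.82 and 8.87 on all 4 cKO arrays (rise 2.41, SE 0.22; limma, adjusted p = 1.35e-04). Efcab1, which encodes a calcium-binding protein of motile cilia, rose by 2.21 (SE 0.24; adjusted p = 8.14e-04), and Xkr6, of the XK family of membrane proteins, by 2.06 (SE 0.12; adjusted p = 1.4e-06). Selenop, the selenium-carrying plasma protein, was already bright in WT, at 7.51, 7.87 and 7.52, and read 8.89, 9.16, 9.30 and 9.03 in cKO (rise 1.46, SE 0.17; adjusted p = 0.00173).

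Imprinted genes are expressed from a single parental copy. The gene lists used here and below were written with earlier results of these data known, so their counts are a description with no test. Of 27 measured members of the imprinted list, Slc38a4 and Snrpn rose and 25 did not pass, where 0.322% of all genes rose. The median was 0.02 beside -0.01 for all genes. Snrpn, which encodes a spliceosomal protein, read 7.52, 7.61 and 7.79 in WT and 8.92, 9.20, 9.04 and 8.87 in cKO (rise 1.37, SE 0.08; limma, adjusted p = 3.48e-06). Snurf, which lies upstream of Snrpn on the same transcript, rose by 1.28 (SE 0.11; adjusted p = 1.14e-04), so the pair is not an independent observation. The next members by p were Phlda2, at -0.15 (SE 0.04; adjusted p = 0.208), and Mkrn3, at 0.12 (SE 0.04; adjusted p = 0.279).

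Of 23 measured interferon response genes, Trim30d rose and 22 did not pass, where 0.322% of all genes rose. Trim30d, a member of the TRIM30 family, read 4.38, 4.22 and 4.40 in WT and 6.52, 6.40, 6.14 and 7.06 in cKO (rise 2.20, SE 0.20; limma, adjusted p = 1.71e-04). The list's median was 0.15 (0.07 without cKO 4), and 18 members (78.3%) were above 0, beside 45.2% of all genes. Its next members by p were Ifi27, at 0.25 (SE 0.06; adjusted p = 0.108), and Irf9, at 0.44 (SE 0.13; adjusted p = 0.199). A pair of TRIM genes outside that list, Trim34a and Trim12a, also rose, by 0.91 (SE 0.16; adjusted p = 0.0253) and 0.77 (SE 0.14; adjusted p = 0.0359). Each of these 2 calls was lost without any 1 of 6 of the 7 IFE arrays, cKO 1 being the exception, at an adjusted p of up to 0.0904 for Trim34a and 0.12 for Trim12a. The inflammasome protease gene Casp1 read 7.24, 7.17 and 6.98 in WT and 7.75, 7.96, 8.07 and 8.02 in cKO (rise 0.82, SE 0.10; adjusted p = 0.00192).

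Members of germ line families appeared among the smaller rises, and they are named here after their values were seen. Pramel12, Ssxb1, Nxf7 and Psma8, the last a proteasome subunit of the testis, rose by 0.57 (SE 0.07; limma, adjusted p = 0.00282), 0.58 (SE 0.10; adjusted p = 0.0194), 0.55 (SE 0.08; adjusted p = 0.00494) and 0.36 (SE 0.06; adjusted p = 0.0115). The calls of Ssxb1 and Psma8 were lost without cKO 3, WT 1 or WT 2, at an adjusted p of up to 0.114 and 0.0663, and those of Pramel12 and Nxf7 held whichever IFE array was left out. None of the 24 measured members of the germline list passed, its median was -0.01, and 9 members (37.5%) were above 0, beside 45.2% of all genes. Its member with the smallest p was Rhox5, a homeobox gene of the germ line, at 0.36 (SE 0.07; adjusted p = 0.0547).

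Other probe sets of the same genes served as a further measurement. Of the 85 genes, 40 had at least 1 further probe set, 61 in all, of which 59 differed in the same direction and 21 passed in that direction (0.383% of all probe sets passed). None passed in the other direction. The sizes differed between probe sets. The other probe set of Slc38a4 rose by 2.43, that of Akr1c12 by 1.66, that of Gpa33 by 1.53 and that of Minar2 by 1.04. The other probe sets of Adgrv1 and Xkr6 differed by -0.01 and 0.10 and did not pass. A further probe set of Efcab1 rose by 2.22 and passed, and another differed by 0.15 and did not.

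The sequences upstream of the start sites show what the pair Akr1c12 and Akr1c13 share, and the CG dinucleotides before several of the changed genes. The 250 bases before the start are printed 5′ to 3′ on the gene's strand, from RefSeq's annotation of GRCm38.p6, with each CG in capitals. They lie at chr13:4279400-4279649 (minus strand) for Akr1c12, chr13:4190937-4191186 (plus) for Akr1c13, chr15:97055957-97056206 (minus, the outermost of 3 starts) for Slc38a4, chr1:166129971-166130220 (plus) for Gpa33, chr10:115817034-115817283 (plus) for Tspan8 and chr9:7445572-7445821 (plus) for Mmp3.
Akr1c12: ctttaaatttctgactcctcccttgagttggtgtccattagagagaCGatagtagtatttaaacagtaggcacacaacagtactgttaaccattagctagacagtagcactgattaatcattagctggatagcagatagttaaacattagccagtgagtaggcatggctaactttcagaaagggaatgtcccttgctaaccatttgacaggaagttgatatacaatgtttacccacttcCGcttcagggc
Akr1c13: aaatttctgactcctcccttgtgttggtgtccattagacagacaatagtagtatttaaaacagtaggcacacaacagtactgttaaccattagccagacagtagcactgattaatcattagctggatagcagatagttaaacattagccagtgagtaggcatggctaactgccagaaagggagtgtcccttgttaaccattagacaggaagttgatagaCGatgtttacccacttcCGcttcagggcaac
Slc38a4: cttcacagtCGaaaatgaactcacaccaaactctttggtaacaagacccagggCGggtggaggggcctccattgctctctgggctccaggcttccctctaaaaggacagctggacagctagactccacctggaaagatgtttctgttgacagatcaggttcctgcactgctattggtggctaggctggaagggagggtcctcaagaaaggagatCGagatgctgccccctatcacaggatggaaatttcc
Gpa33: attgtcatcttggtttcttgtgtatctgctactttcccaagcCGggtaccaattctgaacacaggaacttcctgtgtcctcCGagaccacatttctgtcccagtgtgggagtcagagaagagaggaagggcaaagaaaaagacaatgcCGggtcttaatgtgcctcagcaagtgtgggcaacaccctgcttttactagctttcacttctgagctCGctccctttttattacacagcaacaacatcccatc
Tspan8: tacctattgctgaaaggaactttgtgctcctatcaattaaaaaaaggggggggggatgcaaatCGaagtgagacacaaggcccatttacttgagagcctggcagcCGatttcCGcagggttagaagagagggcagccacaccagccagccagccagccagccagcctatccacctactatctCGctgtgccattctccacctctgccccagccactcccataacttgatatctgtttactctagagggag
Mmp3: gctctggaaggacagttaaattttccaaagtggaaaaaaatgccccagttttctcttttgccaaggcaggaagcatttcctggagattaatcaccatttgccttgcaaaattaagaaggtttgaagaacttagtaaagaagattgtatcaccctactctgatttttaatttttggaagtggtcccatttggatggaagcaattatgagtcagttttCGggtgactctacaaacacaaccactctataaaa
Akr1c12 and Akr1c13 matched at 235 of 246 aligned bases (95.5%). The number of CG dinucleotides was 2 before Akr1c12 and Akr1c13, 3 before Slc38a4, 4 before Gpa33 and Tspan8 and 1 before Mmp3. It was 5 at each of the other starts of Slc38a4, and 11 before Adgrv1, which rose too. Over the 63 RefSeq starts of the 43 risen genes found in the table, the median was 4 CG dinucleotides. It was 14.5 over 26 starts of 23 fallen genes, 12 over 17065 starts of 13605 measured genes, and 6 over all 32851 starts of the table, unmeasured genes included. The TATA motif TATAAA, searched on both strands, stood in 14.3% of the risen, 19.2% of the fallen and 9.01% of all measured starts. The palindromic AP-1 motif TGANTCA stood in 6.35%, 3.85% and 5.73%, and the palindromic E-box CACGTG in 1.59%, 0% and 7.38%. The window of Mmp3 held 1 TATAAA and 1 TGANTCA, and those of Akr1c12, Akr1c13, Gpa33 and Tspan8 held none of these 3 motifs. A motif match is a description of these windows only.

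The neighbours of the changed genes were then read in the order of RefSeq's protein-coding genes. Of the 85 genes, 83 could be placed. Within 5 genes on either side they had 641 measured neighbours, of which 10 (1.56%) passed, beside 0.497% of all genes. Those 10 form 5 pairs: Akr1c12 with Akr1c13, Snrpn with Snurf, Tmem176a with Tmem176b, Trim12a with Trim34a, and Dach1 with Dis3, which both fell. The first 4 pairs are related genes or share a transcript, and signal shared between their probes was not tested. Only the pairs Akr1c12 with Akr1c13 and Snrpn with Snurf passed whichever IFE array was left out. Tmem176a lost its call without any 1 of the 7 arrays, Trim12a and Trim34a without any 1 of 6, Dis3 without cKO 2, cKO 3, WT 1 or WT 2, and Dach1 without WT 1 or WT 2. The remaining 73 genes had no neighbour that passed.

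**Figure D2:**
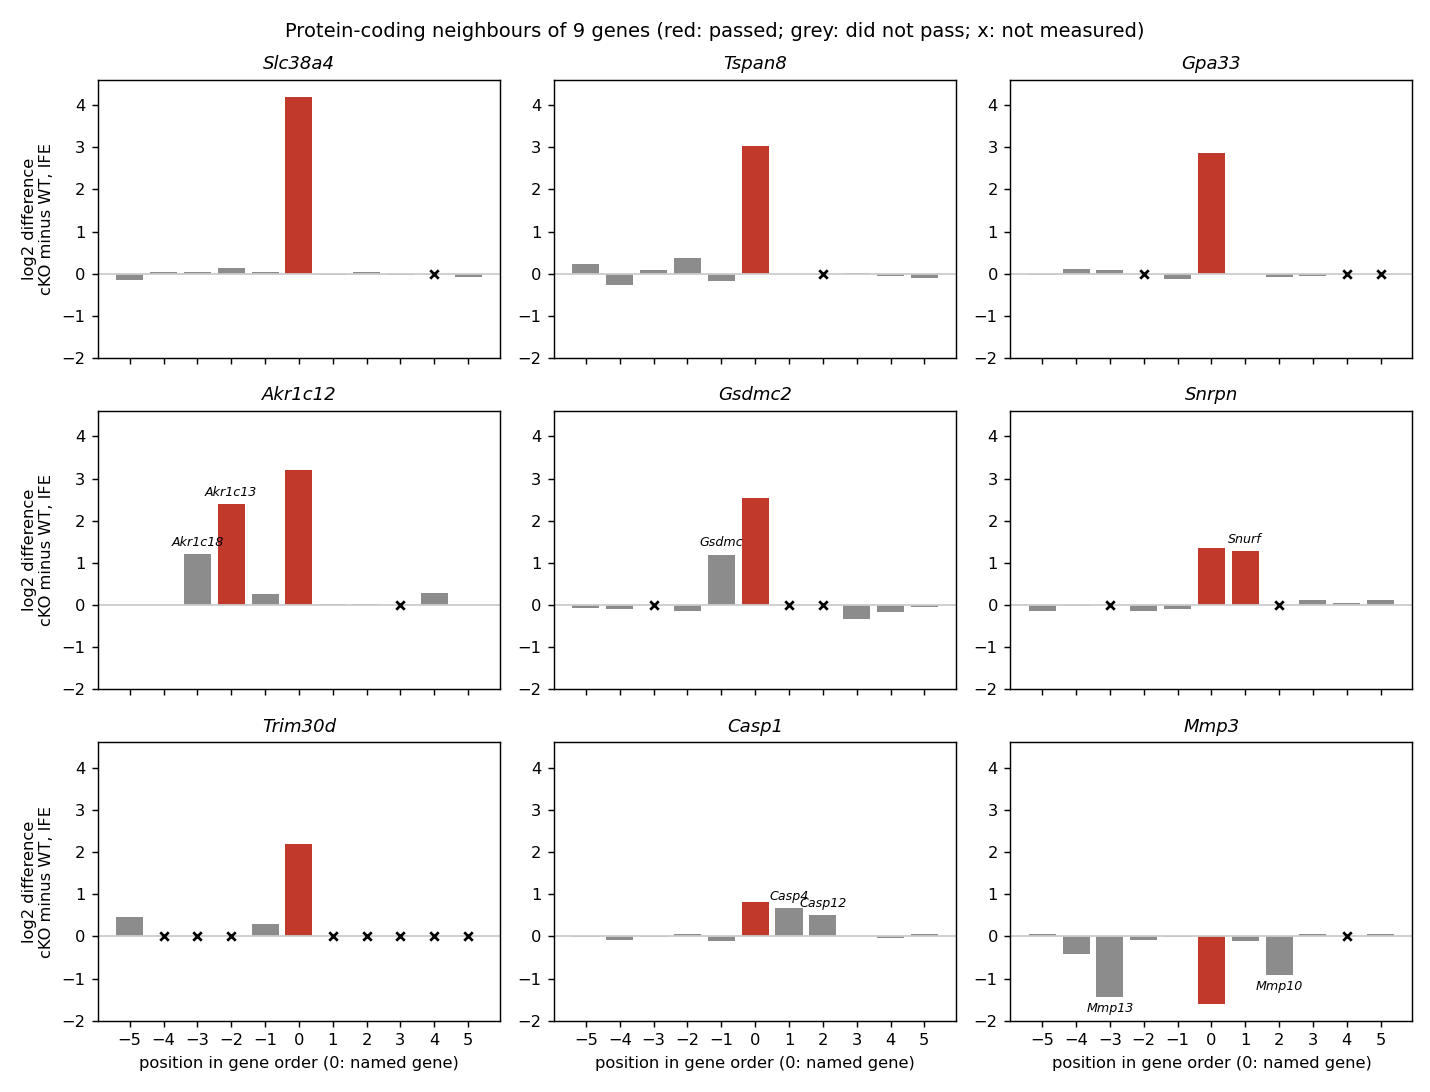
Log2 difference, cKO minus WT in IFE, of 9 genes (position 0) and of up to 5 protein-coding neighbours on either side in RefSeq gene order; red bars passed, grey bars did not, and crosses mark genes not measured. Slc38a4, Tspan8 and Gpa33 stand alone, whereas Akr1c12 and Snrpn have a neighbour that also passed.

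The 9 measured neighbours of Slc38a4 differed by -0.14 to 0.12, while the gene itself rose by 4.18. The 7 measured neighbours of Gpa33 differed by -0.13 to 0.10, and the 9 of Tspan8 by -0.27 to 0.37, the highest being the bulge marker Lgr5. Beside Akr1c12, Akr1c18 differed by 1.20 with an SE of 0.66 and did not pass (limma, adjusted p = 0.552). Beside Gsdmc2, its relative Gsdmc differed by 1.20 (SE 0.40; adjusted p = 0.28), and the 2 groups did not overlap. The neighbours of Mmp3 in the metalloprotease cluster lay below 0 and did not pass: Mmp13 differed by -1.43 (SE 0.43; adjusted p = 0.223) and Mmp10 by -0.92 (SE 0.24; adjusted p = 0.139).

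**Figure D3:**
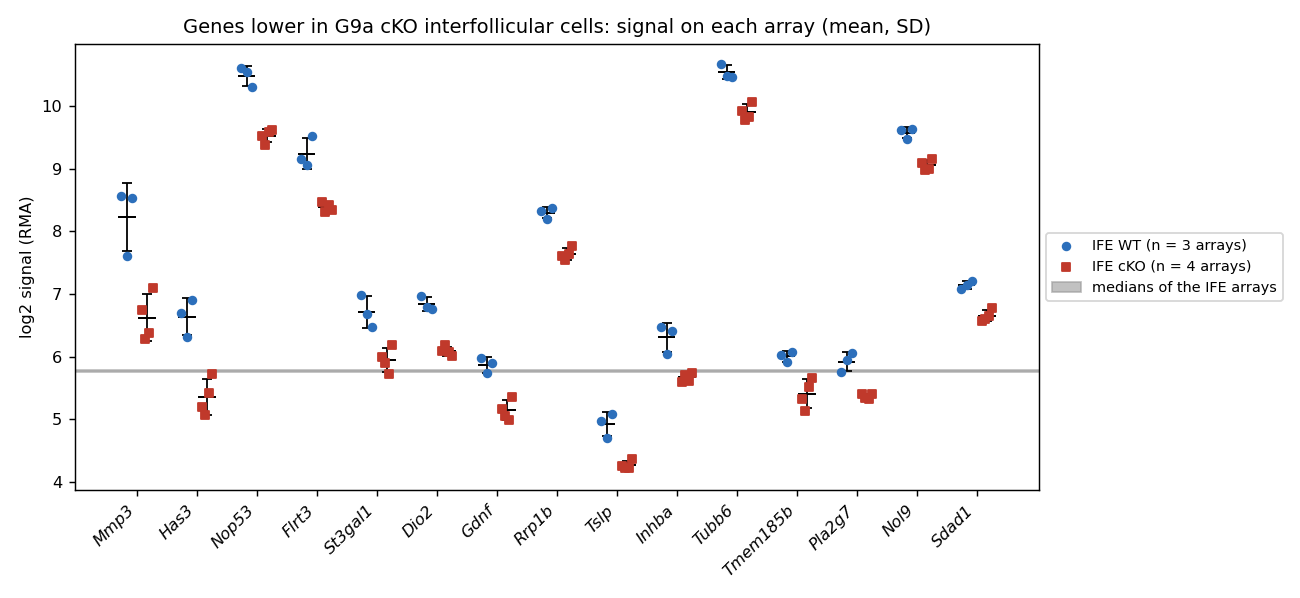
Log2 signal (RMA) of 15 genes that fell in IFE cells of cKO mice, drawn as in the plot of risen genes. The cKO squares lie below the WT circles for every gene shown; Nop53 and Tubb6 are the brightest and Tslp the dimmest.

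Among the 30 fallen genes were several for secreted or cell surface proteins, and which cells expressed them was not tested. Mmp3, the protease stromelysin 1, read 8.57, 7.61 and 8.52 in WT and 6.74, 6.28, 6.37 and 7.10 in cKO. The highest cKO array stayed below the lowest WT array, and the fall of 1.61 (SE 0.26; limma, adjusted p = 0.0173) is 3.05-fold. Has3, which makes hyaluronan at the cell surface, read 6.69, 6.31 and 6.90 in WT and 5.20, 5.07, 5.43 and 5.72 in cKO. It fell by 1.28 (SE 0.17; adjusted p = 0.00316), to a level below the array medians. The call of Mmp3 rested on single arrays. Its adjusted p was 0.0582 without cKO 2, 0.0698 without cKO 3, 0.107 without WT 1 and 0.0681 without WT 3. Has3 passed whichever IFE array was left out, with an adjusted p of at most 0.0281.

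Tslp, the cytokine that keratinocytes release as an alarm signal, was dim on all arrays. It read 4.98, 4.71 and 5.08 in WT and 4.26, 4.22, 4.22 and 4.37 in cKO, a fall of 0.66 (SE 0.07; limma, adjusted p = 8.51e-04). Crlf2, the TSLP-binding chain of its receptor, read 6.72, 6.71 and 6.66 in WT and 6.43, 6.41, 6.27 and 6.22 in cKO. It fell by 0.36 (SE 0.06; adjusted p = 0.0197), and its call was lost without cKO 3 (adjusted p = 0.0812), WT 1 (0.109) or WT 2 (0.0904). Inhba, which encodes the activin A subunit, fell by 0.64 (SE 0.10; adjusted p = 0.0162), Gdnf, a neurotrophic factor, by 0.72 (SE 0.09; adjusted p = 0.00192), and Pla2g7, the secreted enzyme that degrades platelet-activating factor, by 0.55 (SE 0.10; adjusted p = 0.0323). Dio2, the enzyme that activates thyroid hormone, read 6.97, 6.79 and 6.76 in WT and 6.09, 6.19, 6.07 and 6.01 in cKO. Its fall of 0.75 (SE 0.07; adjusted p = 1.14e-04) passed whichever IFE array was left out. Flrt3, an adhesion protein, fell by 0.86 (SE 0.13; adjusted p = 0.0129) and St3gal1, a sialyltransferase, by 0.76 (SE 0.14; adjusted p = 0.0359).

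The lists around these genes were read in full. Over all genes 0.175% fell and 0.322% rose. Of 20 measured matrix metalloproteases and inhibitors, Mmp3 fell, none rose, and 16 (80%) were below 0, beside 54.8% of all genes. The list's median was -0.18, beside -0.01 for all genes. The median was -0.09 without WT 3, -0.11 without cKO 3 and -0.28 without WT 2. Mmp9 differed by -0.82 (SE 0.29; limma, adjusted p = 0.311) and did not pass. Of 13 measured genes of hyaluronan synthesis and turnover, Has3 fell and 12 did not pass. The synthase Has2 differed by -0.65 (SE 0.19; adjusted p = 0.207) and the hyaluronidase Hyal2 by -0.16 (SE 0.04; adjusted p = 0.0979), each with groups that did not overlap. Of 24 measured genes of keratinocyte stress and alarmins, Tslp fell and 23 did not pass. Il18, another cytokine of keratinocytes, differed by 0.75 (SE 0.24; adjusted p = 0.249). Of 18 measured prostaglandin and phospholipase genes, Pla2g7 fell and 17 did not pass.

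Several of the fallen genes are known from ribosome assembly and RNA processing, and most are named after their values were seen. Nop53, a nucleolar factor of the large subunit, read 10.60, 10.53 and 10.30 in WT and 9.52, 9.38, 9.58 and 9.61 in cKO. Its fall of 0.96 (SE 0.10; limma, adjusted p = 4.31e-04) passed whichever IFE array was left out, and its 2 other probe sets fell by 0.95 and 0.53. Rrp1b, a nucleolar protein, fell by 0.66 (SE 0.09; adjusted p = 0.00282), and Nol9, a kinase of ribosomal RNA processing, by 0.52 (SE 0.08; adjusted p = 0.0104). Sdad1 fell by 0.49 (SE 0.08; adjusted p = 0.018), Dis3, the nuclease of the RNA exosome, by 0.44 (SE 0.07; adjusted p = 0.0199), and Ftsj3, a methyltransferase of ribosomal RNA precursors, by 0.39 (SE 0.08; adjusted p = 0.0465). Nop14 and Urb2, factors of ribosome assembly, fell by 0.32 and 0.30 (adjusted p = 0.0232 and 0.028).

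A list of ribosome biogenesis genes was put together after these names were seen, so its values are a description with no test. Of 130 measured members, the 8 just named fell and none rose, beside 0.175% and 0.322% of all genes. Those 8 were in the list by its making, and they enter every count, median and mean given here. In the bulge 5 members fell and none rose, and the list's median there was -0.14, beside 0.01 for all genes. The IFE groups did not overlap, with cKO lower, for 39 of the 130 members, beside 5.97% of all genes. In all, 122 members were below 0, a share of 93.8%, beside 54.8% of all genes, and the median was -0.23. The mean over the list was 8.18, 8.17 and 8.14 on the WT arrays and 7.95, 7.79, 7.92 and 8.07 on the cKO arrays, so the 2 groups did not overlap. The number that fell was sensitive to single arrays. It was 2 of 130 without WT 1, 3 without cKO 2 or without cKO 3, 4 without WT 2, 5 without WT 3 and 1 without both cKO 2 and cKO 3. The median stayed between -0.28 and -0.14 over these settings, the 2 other scalings, and the settings without cKO 1 or cKO 4.

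**Figure D4:**
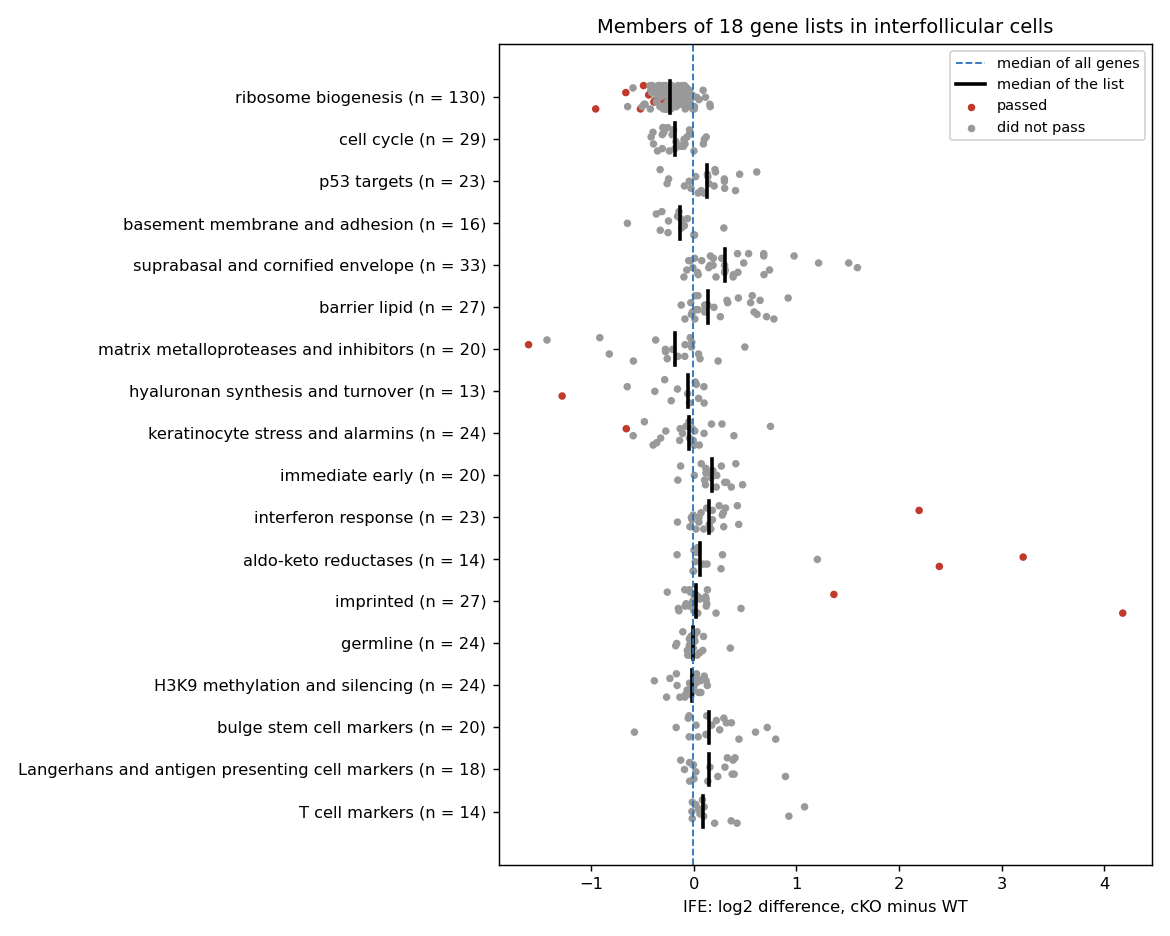
Log2 difference, cKO minus WT in IFE, of each measured member of 18 gene lists (points; red passed, grey did not), with the median of each list (black bar) and of all genes (dashed line, -0.01). Ribosome biogenesis, a list made after values were seen, lies to the left of the dashed line at a median of -0.23, and the suprabasal and cornified envelope list lies to the right at 0.30 without a member that passed.

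Lists of epidermal differentiation held no gene that passed. None of 33 measured suprabasal and cornified envelope genes passed, and the median was 0.30. Of these genes 28 (84.8%) were above 0, beside 45.2% of all genes. Calml3, a calmodulin-like protein of differentiating keratinocytes, differed by 1.59 (SE 0.39; limma, adjusted p = 0.12), Spink5, an inhibitor of epidermal proteases, by 1.22 (SE 0.38; adjusted p = 0.243), and Lor, the envelope protein loricrin, by 1.51 (SE 0.64; adjusted p = 0.407). The list's mean was 7.96, 7.47 and 7.58 on the WT arrays and 7.76, 8.27, 8.26 and 7.95 on the cKO arrays. The groups overlapped, and cKO 2 and cKO 3 were the highest. Without that pair the median was 0.13, and it was 0.17 without WT 2. None of 27 measured barrier lipid genes passed either, and 22 (81.5%) were above 0. Their median was 0.14 (0.08 without WT 2, 0.09 without cKO 3, 0.25 without WT 1 and 0.27 without WT 3). None of 16 measured genes of basement membrane and adhesion passed, and 13 (81.2%) were below 0, beside 54.8% of all genes. Their median was -0.14, with the integrin genes Itga6 and Itgb1 at -0.31 (SE 0.09; adjusted p = 0.207) and -0.36 (SE 0.12; adjusted p = 0.246).

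Proliferation genes gave no call. None of 29 measured cell cycle genes passed, 25 (86.2%) were below 0, beside 54.8% of all genes, and the median was -0.18. The median was -0.05 without WT 2, -0.09 without WT 1, -0.32 without cKO 4 and -0.39 without WT 3. The list's mean was 8.13, 8.22 and 7.59 on the WT arrays and 7.73, 7.62, 7.72 and 8.17 on the cKO arrays. WT 3 sat with the lower cKO arrays and cKO 4 with the higher WT arrays, so the groups overlapped. None of 23 measured p53 targets passed, and 17 (73.9%) were above 0, beside 45.2% of all genes. Their median was 0.13 (0.08 without cKO 4 or WT 3). The p53 target with the smallest p was Rrm2b, a ribonucleotide reductase subunit, at 0.30 (SE 0.06; limma, adjusted p = 0.054). None of 20 measured immediate early genes passed, 18 (90%) were above 0 and the median was 0.18 (0.10 without WT 3). None of 24 measured genes of H3K9 methylation and silencing passed, and the median was -0.02. Here Ehmt2 was read by its brighter probe set, and it passed at -1.79 as the mean of its probe sets and at -3.66 by the other one (limma, adjusted p = 6.89e-09 and 8.7e-12).

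Of 14 measured aldo-keto reductases, Akr1c12 and Akr1c13 rose and 12 did not pass, with a median of 0.06. None of the measured members passed in the lists of antioxidant and detoxification genes (25, median -0.02), EGF receptor ligands and receptors (12, median -0.08), MHC class I and antigen processing (13, median 0.13), differentiation regulators (22, median 0.08), the Wnt pathway (25, median -0.0029) or the circadian clock (17, median 0.05).

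Markers of other cells were measured on the same arrays, and none of them passed. Their part in the results above was not tested. The mean of 14 T cell markers was 5.59 to 5.76 in WT and 5.81, 6.05, 6.08 and 5.74 in cKO. Cd3e and Cd3g, subunits of the T cell receptor complex, differed by 1.08 (SE 0.44; limma, adjusted p = 0.388) and 0.93 (SE 0.37; adjusted p = 0.379). Cd5, a surface protein of T cells that is not in that list and was chosen after its value was seen, read 6.09, 5.91 and 5.73 in WT and 6.56, 6.65, 6.67 and 6.80 in cKO, and rose by 0.76 (SE 0.09; adjusted p = 0.00217). Its highest value was on cKO 4, where the mean of the T cell markers was the lowest of the cKO arrays. In the bulge Cd5 rose by 0.93 (limma, adjusted p = 3.82e-04 over all probe sets). The mean of 20 bulge markers was 6.87 to 7.0 in WT and 6.83, 7.34, 7.41 and 6.85 in cKO. The arrays cKO 2 and cKO 3 were thus the highest for both lists, and the same 2 arrays were the highest for 15 fibroblast markers (6.40 and 6.36, beside 6.03 to 6.23 in WT) and 18 Langerhans and antigen presenting cell markers (6.39 and 6.40, beside 5.91 to 6.20 in WT). The medians were 0.14 over 18 upper follicle and sebaceous markers, 0.05 over 11 melanocyte markers, -0.06 over 13 endothelial and mural markers, -0.02 over 13 skeletal muscle markers and -0.02 over 10 Merkel cell and nerve markers. Without cKO 2 and cKO 3, 33 genes were higher and 4 were lower. Of the 85 genes, 31 passed in that fit. None could change direction there, since their groups did not overlap.

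The counts also depended on other single arrays. Without WT 1, 30 genes were higher and 8 were lower, and without cKO 3, 34 were higher and 9 were lower. Without cKO 2 the numbers were 44 and 13, without WT 2 they were 38 and 20, and without cKO 4 they were 53 and 54. In the fit without cKO 4, 43 of the 55 risen and 27 of the 30 fallen genes still passed. Of the 20 genes that rose at least 2-fold, 17 passed whichever IFE array was left out. The exceptions were Gm8126, Acsm1 and Grm4. Gm8126, a gene model, rose by 1.87 (SE 0.31; limma, adjusted p = 0.0194) and reached an adjusted p of 0.109 without WT 1. Its call was also lost without cKO 3 or WT 2. Acsm1, an acyl-CoA synthetase, rose by 1.09 and lost its call without any 1 of 6 arrays, cKO 1 being the exception, with an adjusted p of up to 0.12 (limma). Grm4, a glutamate receptor, rose by 1.08 and lost its call without any 1 of 6 arrays, cKO 3 being the exception, with an adjusted p of up to 0.116. Of the 15 fallen genes in the plot, those that passed whichever IFE array was left out were Has3, Nop53, Dio2, Gdnf, Rrp1b and Tslp. Flrt3 and Nol9 lost their calls without WT 1 alone, and St3gal1, Inhba, Tubb6, Tmem185b, Pla2g7 and Sdad1 each lost theirs without any of several arrays, WT 1 among them except for Pla2g7. The highest adjusted p among them was 0.169, for St3gal1 without WT 1.

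In the bulge most genes risen in IFE lay on the same side of 0. The 2 comparisons share no arrays, but both drew on a spread pooled over all arrays, and the labels do not say whether they share mice. Their calls are therefore not independent. Of the 55 genes, 52 (94.5%) were also above 0 in the bulge, as were 53.8% of all genes. In the bulge 34 of the 55 rose too (61.8%), where 1.98% of all genes rose, and these 34 were 10.0% of the 339 genes that rose there. The median difference of the 55 was 0.77 in IFE, which chose them, and 0.52 in the bulge. Of the 30 fallen genes, 23 (76.7%) were below 0 in the bulge, as were 46.2% of all genes. In the bulge 9 of them fell too (30%), where 1.85% of all genes fell, and these 9 were 2.84% of the 317 genes that fell there. None of the 85 genes passed in the opposite direction in the bulge, where 3.84% of all genes passed in either direction.

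**Figure D5:**
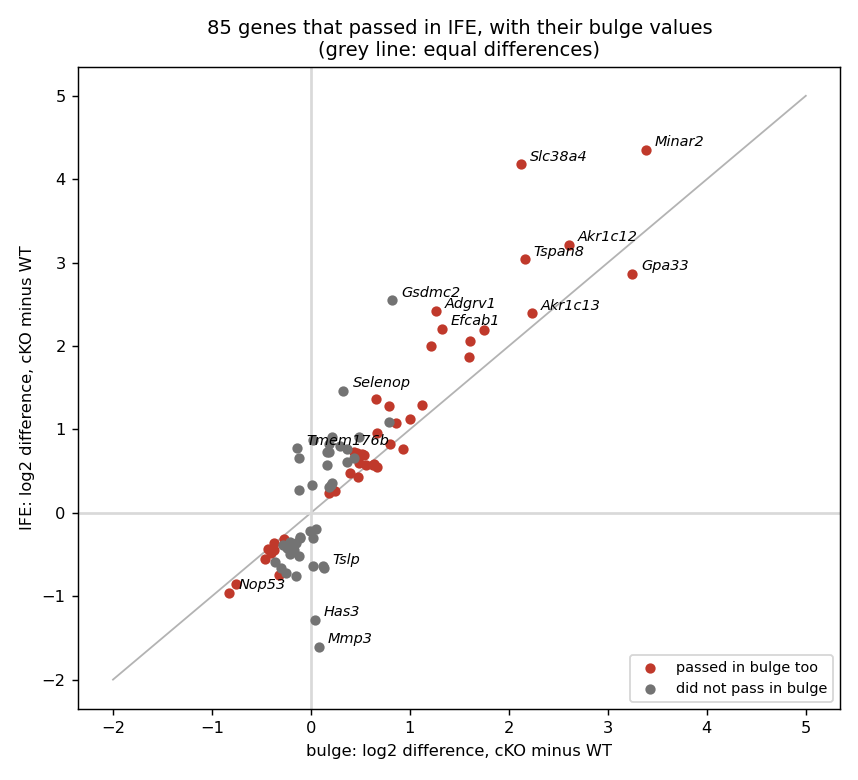
Log2 difference, cKO minus WT, in bulge (horizontal) and IFE (vertical) for the 85 genes that passed in IFE; red points passed in the bulge too, and the diagonal marks equal differences. Minar2 and Gpa33 lie far out on both axes, Slc38a4 lies above the diagonal, and Has3 and Mmp3 lie near 0 on the bulge axis. The difference was larger in size in IFE, which chose the genes, for 49 of the 55 risen and 29 of the 30 fallen genes.

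Gpa33 rose by 3.25 in the bulge and 2.87 in IFE, Minar2 by 3.38 and 4.35, Akr1c12 by 2.61 and 3.21, and Casp1 by 0.80 and 0.82. For none of these 4 did the 2 effects differ by the test (limma, adjusted p = 0.326, 0.27, 0.188 and 0.961). Nop53 fell by 0.83 in the bulge and 0.96 in IFE (adjusted p of the difference = 0.68). A p that misses the threshold does not show that the effects were equal.

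The difference between the IFE effect and the bulge effect passed for 18 genes (0.105%), 14 with the IFE value higher and 4 with it lower. Only Slc38a4, Tmem176b and Tslp among them also passed in IFE, and 16 passed in the bulge. The number of such differences was 3 without IFE cKO 3 and 1 without both IFE cKO 2 and 3. Slc38a4 read 9.38 to 9.69 in IFE cKO and 9.70 to 9.94 in bulge cKO, from WT values of 4.93 to 5.56 in IFE and 7.37 to 8.26 in the bulge. Its effects were thus 4.18 and 2.12, a difference of 2.06 (SE 0.28; limma, adjusted p = 0.0228). Tmem176b, a membrane protein of intracellular compartments, read 9.28, 9.14 and 9.18 in IFE WT and 9.91, 9.97, 10.01 and 10.01 in IFE cKO. In the bulge it read 10.29 to 10.48 in WT and 10.08 to 10.41 in cKO, so the groups overlapped there, and the effects of 0.77 and -0.14 differed by 0.91 (SE 0.11; adjusted p = 0.00959).

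Tslp showed its fall where it was highest. The bulge arrays read 4.12 to 4.20 in WT and 4.26 to 4.29 in cKO, close to the 4.22 to 4.37 of IFE cKO, and the effects of -0.66 in IFE and 0.13 in the bulge differed by -0.79 (SE 0.10; limma, adjusted p = 0.0223). For Has3 and Mmp3 the difference of effects did not pass. Has3 read 4.52 to 4.92 over all bulge arrays and 6.31 to 6.90 in IFE WT, and its effects differed by -1.32 (SE 0.24; adjusted p = 0.0676). Mmp3 read 5.34 to 5.88 over all bulge arrays and 7.61 to 8.57 in IFE WT, and its effects differed by -1.69 (SE 0.37; adjusted p = 0.141). Bulge levels of Has3, Mmp3 and Tslp in WT thus lay below every IFE WT array. Gsdmc2 and Selenop rose in IFE and did not pass in the bulge, at 0.82 and 0.33, and their effects did not differ by the test (adjusted p = 0.181 and 0.137). The remaining genes with differing effects did not pass in IFE. The serpin gene Serpina3n, for example, fell by 2.23 in the bulge and differed by -0.28 in IFE (adjusted p of the difference = 0.0228), and Mme, the protease neprilysin, fell by 1.52 in the bulge and differed by -0.24 in IFE (0.0284). The IFE groups of these 2 genes did not overlap.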

How the data were processed

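The deposited values are log2 signals, 1 for each probe set and array, which the authors computed with RMA per the submitters' processing notes. That method subtracts background, gives all arrays the same distribution and combines the probes of a set, so a value has meaning relative to the other arrays. The sources used here name no version of RMA. Per the labels' protocols, RNA was extracted with TRizol and amplified as cDNA before biotin labelling. Of 45141 probe sets, 28898 had 1 gene symbol, 551 several and 15692 none. Each of 17097 genes took its probe set with the highest mean over the 14 arrays, and dim probe sets were kept.

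A mean for each of the 4 groups was fitted to the 14 arrays with lmFit and eBayes (limma 3.58.1, R 4.3.3, no trend), which left 10 residual degrees of freedom. Contrasts were cKO minus WT in IFE, the same in bulge, and the difference of these effects. P-values were two-sided, with Benjamini-Hochberg adjustment across the 17097 genes, and a gene passed at an adjusted p under 0.05. The fit was tested on simulated data.

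The genes, lists and rules were chosen with earlier results of these data known. The rule named the 15 largest rises and falls, up to 4 members of each of 31 lists by p, and the largest differences of effects; 1 risen gene and its list are not reported here. Smaller changes, Snurf, neighbours and the ribosome biogenesis list were chosen after values were seen. Lists are described by counts and medians, with no test. The alternatives were other scalings, filters, probe set choices, variance models, thresholds, blocks and left-out arrays. Upstream sequences came from RefSeq (GRCm38.p6). Figures were drawn with matplotlib 3.10.9, and sequences aligned with Biopython 1.88.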

Additional observations from a re-analysis of the deposited data

Results flagged for a closer look

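For 5 genes named above the effect of G9a loss differed between IFE and bulge by the test of the difference itself (limma, adjusted over all genes, with 4 cKO and 3 WT arrays in each compartment). The IFE effect minus the bulge effect was 2.06 for the amino acid transporter gene Slc38a4 (adjusted p = 0.0228), 0.91 for Tmem176b (adjusted p = 0.00959) and -0.79 for the cytokine gene Tslp (adjusted p = 0.0223). It was 1.95 for Serpina3n (adjusted p = 0.0228) and 1.28 for Mme (adjusted p = 0.0284), which both fell in the bulge and did not pass in IFE. Over all genes 18 such differences passed, but only 3 did without IFE cKO 3 and 4 without IFE WT 1 or IFE WT 2. Without both IFE cKO 2 and 3 the number was 1. Not all of these 5 calls therefore held in those fits. In data outside the gene tests, 48 of the 16243 probe sets without a single gene symbol passed in IFE (0.296%; limma, adjusted p under 0.05 over all probe sets), 37 of them higher and 11 lower in cKO, at -0.74 to 3.01. They have no gene name here.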

How the results depend on the processing

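None of the 85 genes changed direction under the alternatives that gave 1 value for each gene. Where arrays were left out or weighted, or only the variance model or threshold changed, none could, since their groups did not overlap. Of these, 19 kept the threshold, set no fold minimum and gave 1 value for each gene, those chosen after seeing the data included. Over these 19 alternatives, 24 genes passed wherever they were tested: 22 that rose, and Dio2 and Nop53, which fell. With each IFE array left out in turn, 30 to 61 genes were higher, 8 to 54 lower, and 3 to 13 had differing effects, beside 55, 30 and 18. Without WT 1 the numbers were 30, 8 and 4, and without cKO 3 they were 34, 9 and 3.

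The IFE arrays alone gave 36 higher and 12 lower, and 41 of the 85 genes passed in that fit. A fold of at least 1.5 gave 12 lower and 11 differing effects, and leaving out dim probe sets gave 6 differing effects. Averaging all probe sets of a gene gave 46 lower, every probe set by itself 119, 54 and 65, and an adjusted p under 0.1 gave 94, 82 and 49. Array weights gave 374, 530 and 2519; the cause was not tested. Further alternatives were chosen after seeing the data. Leaving out bulge cKO 2 and 3 gave 75 higher and 31 lower in IFE and 3 differing effects. Leaving out IFE cKO 2 and 3 gave 33 higher, 4 lower and 1 differing effect.

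Ehmt2 differed by -1.79 as the mean of its probe sets and by -3.66 with the more variable one. Lgr5 differed by -0.26 without IFE cKO 2 and 3. Ehmt1 lay between -0.23 and 0.0196 when 1 array was left out. None of these values of Ehmt1 and Lgr5 passed.

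The labels give replicate numbers to every group without saying what a number shares. Residuals of IFE cKO and WT arrays with the same number correlated at -0.62, -0.20 and -0.35, so the numbers were not taken as pairs of cKO and WT arrays. Those of IFE and bulge arrays with the same number correlated at 0.25, 0.04 and 0.14 in WT and at -0.03, 0.11, -0.57 and 0.15 in cKO. With the number as a replicate block, 26 genes were higher, 7 lower and 2 had differing effects. Another fit took IFE and bulge arrays of the same genotype and number as a random block. There 55 genes were higher, 30 lower and 20 had differing effects, and 84 of the 85 genes passed. The consensus correlation within these blocks was 0.035.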
